A study of Bos taurus with 134 samples.

Results

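Hypermethylated windows of intermediate length in single bovine oocytes are described here, that is, stretches of 5000 bp to under 150000 bp on chromosomes 1 to 29 with a mean methylation of at least 80%. The windows were selected on their measured values: each had values in at least 5 IVM and at least 5 IVO oocytes, and the mean of the IVM mean and the IVO mean was at least 80%. Of 27612 windows that met the limits on chromosome, length and number of oocytes, 6417 (23.2%) reached 80% and are called hypermethylated windows. These 27612 windows came from 41322 windows in all, of which 39778 lay on chromosomes 1 to 29 and 29849 of those had the required length. Because the methylation level chose the windows, the level itself is given as a description and no test was made on it.

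Single-cell methylome and transcriptome sequencing separates the DNA and the mRNA of 1 cell, and the DNA of each metaphase II (MII) oocyte was bisulfite sequenced to read the percentage of methylated CpG calls per window. The study asked how the place of maturation bears on the oocyte. All oocytes came from 4 wild type Holstein heifers of 15 to 18 months of age. The 26 IVM oocytes were collected immature from follicles of at most 8 mm after a GnRH injection and matured in culture for 22 h, and the 20 IVO oocytes were aspirated mature from follicles of at least 8 mm after superovulation with 180 mg of FSH and an induction of ovulation with GnRH. The IVO oocytes were also chosen for partial or full cumulus expansion, and the groups were collected on different days. Stimulation, follicle size, this choice, day of collection and place of maturation changed together between the groups, so their effects cannot be told apart. How the windows were set is uncertain: the name of the deposited table gives 20 CpGs for each and the methods give 100 CpGs per tile, so neither the number of CpGs in a window nor the number read in an oocyte is known. MII oocytes were recognized by the polar body in both groups, and the authors had removed libraries with high methylation at X-chromosome CpG islands as possibly contaminated with somatic DNA. Each library is 1 oocyte and its heifer is not named in the labels used here, so each group counts as 1 sample. SDs over oocytes therefore only describe these oocytes, and IVM and IVO are compared without a test.

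DNA methylation is laid down in the growing oocyte by de novo methyltransferases while the oocyte is arrested in meiosis, before maturation begins. In mammalian oocytes, methylation lies mainly over transcribed gene bodies and forms broad methylated domains separated by domains of low methylation, whereas the bulk of the genome in somatic cells is methylated throughout. Maternal imprints are among the marks set during this period, and a window that has lost methylation in 1 oocyte differs from the pattern shared by the others.

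The number of windows measured in an oocyte served as the sign of its depth, since the number of CpG calls behind a percentage is unknown. Over the whole table, IVM oocytes had between 8050 and 32759 windows, with a median of 27420.5, and IVO oocytes between 6570 and 32331, with a median of 23134.5. Of the hypermethylated windows, an IVM oocyte had 1408 at the lowest, 4552 at the median and 5313 at the highest. An IVO oocyte had 1221 at the lowest, 3955 at the median and 5520 at the highest. The ranges overlapped over most of their extent, with 10 oocytes under 15000 windows, 5 in each group. Libraries 1 to 18 and 39 to 46 were IVM and libraries 19 to 38 were IVO, so values of both runs of IVM libraries are given beside the main comparison.

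The hypermethylated windows had a median length of 35829 bp, against 37804.5 bp for all 27612 windows, and together covered 307 Mb, or 22.7% of the 1353 Mb of those windows. A window was measured in 27 oocytes at the median, with a range of 10 to 46. By level, 1613 windows lay at 80 to 85%, 1777 at 85 to 90%, 1903 at 90 to 95% and 1124 at 95% or above. The set was therefore not dominated by windows close to the threshold. Length made little difference to the share of windows that were hypermethylated. The share was 25.0% of windows from 5000 to under 10000 bp, 25.5% from 10000 bp, 23.0% from 20000 bp, 22.0% from 40000 bp, 21.3% from 60000 bp and 22.9% from 80000 bp on. Over the same length classes, the share of windows below 20% fell from 14.7% to 0.227%, so long windows were rarely unmethylated.

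The longest member covered 149849 bp on chromosome 22 (36726525 to 36876373) and had a level of 88.1%. IVM oocytes ranged from 26.7% to 100% in it, with a median of 100%, and IVO oocytes from 33.3% to 100%, also with a median of 100%. The shortest member covered 5003 bp on chromosome 5 (103847548 to 103852550) and had a level of 85.2% in 11 oocytes. The promoter interval listed for EMG1, a methyltransferase of ribosome biogenesis, starts inside this window. The study's promoter list was used here for gene names alone and held in part, for chromosomes 1 to 5 and the start of 6. In the part held, it starts no promoter inside any other window or run named by the same rule. Named windows and runs on the other chromosomes could not be checked for genes. At the threshold, the members just inside had levels of 80.005% on chromosome 20 (716264 to 746516), 80.006% on chromosome 7 (109660467 to 109744383) and 80.01% on chromosome 17 (71281057 to 71346374). The windows just outside had levels of 79.999% on chromosome 10 (67429574 to 67535457), 79.997% on chromosome 23 (51334265 to 51352192) and 79.994% on chromosome 10 (59131869 to 59274795). SDs over oocytes in these 6 windows lay between 24.5 and 32.4 percentage points, so which side a window of this kind fell on was decided by far less than the spread over its oocytes.

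Hypermethylated windows occurred on all 29 chromosomes. The share of windows that were hypermethylated was 21.8% on the median chromosome, and 28 of the 29 chromosomes lay between 18% and 30%. Chromosome 22 stood apart with 316 of 850 windows (37.2%), followed by chromosome 28 with 148 of 519 (28.5%) and chromosome 10 with 261 of 937 (27.9%). The lowest shares were found on chromosome 3 with 196 of 1052 windows (18.6%) and chromosome 14 with 146 of 779 (18.7%). Chromosome 22 ranked first also when windows were chosen by their IVM mean alone (37.1%), by their IVO mean alone (39.4%) and, in a setting chosen after seeing the data, with at least 10 oocytes in each group (40.2%). For these choices, in the same order, chromosome 28 ranked 6, 3 and 6, and chromosome 10 ranked 3, 2 and 2. The windows of chromosome 22 were similar in length to the others, with a median of 36087 bp, and their mean level was 67.0%, against 57.8% over all 27612 windows.

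The excess on chromosome 22 extended over most of its length. In segments of 5 Mb, 14 of 22 windows (63.6%) were hypermethylated at 20 to 25 Mb, 17 of 28 (60.7%) at 30 to 35 Mb, 25 of 46 (54.3%) at 35 to 40 Mb and 36 of 70 (51.4%) at 45 to 50 Mb. Only the first 5 Mb, with 8 of 48 windows (16.7%), lay below the share over all chromosomes. Across the genome, 408 segments of 5 Mb held at least 20 windows, and the median share in a segment was 22.1%. In 13 segments at least 50% of the windows were hypermethylated, among them chromosome 10 at 90 to 95 Mb with 25 of 42 (59.5%), chromosome 7 at 30 to 35 Mb with 13 of 22 (59.1%) and the first 5 Mb of chromosome 8 with 22 of 42 (52.4%). No hypermethylated window was found in 3 segments, which were chromosome 26 at 50 to 55 Mb (65 windows, mean level 36.1%), chromosome 20 at 30 to 35 Mb (27 windows, mean level 51.1%) and chromosome 28 at 45 to 50 Mb (24 windows, mean level 31.5%). Segments were singled out after their values were seen. Along the chromosomes, divided into 10 equal parts, the share was highest in the first part (679 of 2528 windows, 26.9%), lowest in the seventh (451 of 2337, 19.3%) and 23.0% in the last (1432 of 6219). The first part exceeded the share of its own chromosome on 18 of the 29 chromosomes.

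Hypermethylated windows followed each other. A run is a series of members with no other window of the table between them, and neighbouring windows were separated by a median of 41 bp. Where the next window also met the limits on length and oocytes, it was hypermethylated after 2581 of 4984 members (51.8%), against 15.9% after windows of 20 to 80% and 4.86% after windows below 20%. The excess declined with distance. A member was found 2 windows further on in 42.1%, 5 windows further on in 31.3%, 10 windows further on in 27.3%, 20 windows further on in 25.8% and 50 windows further on in 23.4%. The last share was that of all windows at this distance, 23.3%. Methylated domains therefore reached over several windows and had faded into the genomic share by 50 windows.

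The 6417 members formed 3836 runs, of which 2472 were single windows, 775 were pairs and 589 held at least 3 windows. Runs of at least 3 held 2395 members (37.3%), occurred on all 29 chromosomes and covered 114 Mb in all. Their span ranged from 19.3 kb to 759 kb, with a median of 164 kb, and 19 of them reached 500 kb. These shares depended on what could interrupt a run. When windows that were too short, too long or measured in too few oocytes were passed over, 48.3% of members lay in runs of at least 3 and the longest run had 19 windows, whereas with at least 10 oocytes in each group, which leaves fewer members, the share was 19.5%. Runs chosen on a single group had a similar extent, with 36.8% of members for IVM alone and 35.5% for IVO alone, and a longest run of 16 windows in each.

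The longest run consisted of 16 windows on chromosome 1 (155747429 to 156321758, 574 kb), with window levels from 85.1% to 99.1% and a median of 91.7%. Each oocyte was averaged over the windows of the run measured in it, with no minimum number. IVM oocytes had 66.7% at the lowest, 90.6% at the median and 100% at the highest, and IVO oocytes 68.5%, 95.1% and 100%. Of 449 single values in the run, 14 (3.12%) lay below 50% and 307 (68.4%) were at 100%. Methylation was high in both groups throughout this run, and the ranges overlapped. It ended at a window of 64.1% on one side and of 73.4% on the other, both of them intermediate.

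The second run, of 15 windows on chromosome 16 (74327078 to 74881849, 555 kb), had window levels from 84.2% to 98.9%. IVM oocytes ranged from 71.6% to 100% with a median of 93.8%, and IVO oocytes from 33.3% to 100% with a median of 94.0%. The medians were close, and the lowest IVO oocyte lay well below every IVM oocyte. How many windows of the run this oocyte had is not given here, so its average may rest on few of them. The third run, of 12 windows on chromosome 20 (12249366 to 13005898), spanned 757 kb with window levels from 85.0% to 97.3%. IVM oocytes ranged from 66.7% to 100% with a median of 92.0%, and IVO oocytes from 77.7% to 100% with a median of 94.2%. It was the second widest run in bp, after 10 windows on chromosome 1 (129334593 to 130093895) that spanned 759 kb, which was named after its values were seen. The fourth, of 12 windows on chromosome 3 (115883684 to 116165899), spanned 282 kb with window levels from 82.5% to 98.3%. IVM oocytes ranged from 70.8% to 100% with a median of 93.1%, and IVO oocytes from 50.0% to 100% with a median of 95.5%. The fifth, of 11 windows on chromosome 13 (12723459 to 13212447), spanned 489 kb with window levels from 82.3% to 96.0%. IVM oocytes ranged from 70.0% to 100% with a median of 91.4%, and IVO oocytes from 71.1% to 100% with a median of 95.7%. The IVO median was above the IVM median in all 5 runs, whereas the mean over oocytes was higher in IVM in the runs on chromosome 16 (91.8% against 88.5%) and chromosome 3 (92.2% against 92.0%), so median and mean gave different orders there. The ranges of the groups overlapped in each. Between 2.97% and 4.94% of the single values in these runs lay below 50%.

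Windows inside a run were more methylated than its borders. The mean level was 90.8% for the 1217 inner windows of runs of at least 3, 89.8% for the 1178 first and last windows, and 88.3% for the 2472 members without a neighbouring member. Values below 50% made up 3.88%, 4.90% and 6.36% of the values in these 3 kinds of window, in the reverse order of the levels, which the same values set. The number of oocytes measured was 27 at the median in each kind. Outside a run of at least 3, the adjoining window that met the limits had a mean level of 61.5% and was below 20% in 0.900% of 778 cases. Such a window is below 80% by definition, and windows outside the length limits, which bordered 3 of the 5 longest runs, are not in this count. The run on chromosome 20 ended at a window of 450 bp at 0, and that on chromosome 16 began beside a window of 3452 bp at 96.9%.

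Windows outside the length limits were more methylated beside members than elsewhere, although their values took no part in the choice. Beside a member, 245 windows under 5000 bp had a median level of 85.8%, and 138 (56.3%) of them were at 80% or above. Beside a window of 20 to 80%, 1031 such short windows had a median of 39.0%, with 114 (11.1%) at 80% or above. Short windows of low level were also present beside members, with 21 of 245 (8.57%) below 20%. Windows of 150000 bp or more had a median of 78.6% in 962 cases beside a member and of 60.0% in 3082 cases beside a window of 20 to 80%. A window that lay between a pair of windows counts here once for each, and the comparison is a description.

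Whether windows chosen in one group were also methylated in the other was read from the group that took no part in the choice. Of 6404 windows with an IVM mean of at least 80%, 5128 (80.1%) reached 80% in IVO as well, with an IVO mean of 87.4% and 32 windows (0.500%) below 50%. Of 7010 windows with an IVO mean of at least 80%, the same 5128 (73.2%) reached 80% in IVM, with an IVM mean of 84.9% and 91 windows (1.30%) below 50%. In the group that chose the windows, the means were 89.8% and 90.1%. Over all 27612 windows, 6404 reached 80% in IVM and 7010 in IVO. High methylation of these windows was therefore shared by both groups, and the other group was lower than the choosing group in both directions of the choice.

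Most single values in members were at the maximum. Of 175938 values, 110407 (62.8%) were at 100%, 9355 (5.32%) lay below 50% and 4234 (2.41%) were at 0. In windows of 20 to 80%, 24.2% of values were at 100% and 47.9% were below 50%. By group, the value of 100% made up 60.5% of 103762 values in IVM and 65.9% of 72176 in IVO, whereas values from 80% to below 100% made up 21.0% and 17.3%, and values from 50% to below 80% made up 12.9% and 11.8%. The share at 0 was 2.41% in IVM and 2.40% in IVO. These shares are pooled over oocytes, on windows that the same values chose. The median IVO oocyte had fewer windows than the median IVM oocyte, and the share at 100% was higher in oocytes with fewer windows, as given below, so the part of depth in this difference was not tested. Averaged over the oocytes with at least 15000 windows, the share at 100% was 59.5% ± 5.35 (SD, n = 21) for IVM, with a mean of 27213 windows, and 64.9% ± 5.03 (SD, n = 15) for IVO, with a mean of 24892 windows.

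The SD over oocytes within a member was 21.0 percentage points at the median, with quartiles of 13.3 and 25.7, against 33.7 points in windows of 20 to 80% and 22.3 points in windows below 20%. A percentage that cannot exceed 100 has less room for spread at a high mean, so these SDs describe the classes and are not compared further. In 19 members every measured oocyte was at 100%, with 11 to 23 oocytes measured in each. Among the 1307 members with values for at least 15 IVM and 15 IVO oocytes, the smallest SD was 1.41 points on chromosome 19 (52386726 to 52403456), where 31 of 33 oocytes were at 100% and the lowest was 92.9%. The next were chromosome 14 (4429574 to 4436372, SD 2.34, lowest 88.2%), chromosome 22 (30772114 to 30806859, SD 2.37, lowest 92.3%), chromosome 10 (81066954 to 81095233, SD 2.94, lowest 88.9%) and chromosome 19 (14286425 to 14293275, SD 3.02, lowest 80.0%). The window on chromosome 10 was measured in all 46 oocytes, of which 40 were at 100%. None of the 5 windows had an oocyte below 50%. They were picked for a small SD, so this follows from the choice.

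Averaged over the hypermethylated windows it had, an IVM oocyte was at 85.6% at the lowest, 88.6% at the median and 90.2% at the highest, and an IVO oocyte at 87.7%, 89.7% and 91.4%. IVM oocytes averaged 88.5% ± 0.957 (SD, n = 26) and IVO oocytes 89.6% ± 1.06 (SD, n = 20), a difference of IVM from IVO of -1.10 percentage points. The ranges overlapped, and the difference was about as large as the SD over oocytes in each group. The lowest oocytes were IVM libraries 40 (85.6%) and 39 (86.7%), and without both, with the windows also chosen anew from the other oocytes, the difference was -0.870, a setting chosen after seeing the data. IVM libraries 1 to 18 had 88.5% ± 0.490 (SD, n = 18) and libraries 39 to 46 had 88.6% ± 1.64 (SD, n = 8), which on the windows chosen from all oocytes lay -1.13 and -1.05 percentage points from IVO. The latter value rested largely on libraries 39 and 40, since on the same windows it was -0.625 without library 40 and -0.241 without both, in settings chosen after seeing the data.

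Every oocyte helped to choose the windows on which it was then averaged. When the windows were chosen anew for each oocyte without its own values, IVM oocytes ranged from 83.9% to 89.0% with a median of 87.2%, and IVO oocytes from 85.4% to 89.7% with a median of 87.7%. The means were then 87.1% ± 1.03 (SD, n = 26) and 87.5% ± 1.35 (SD, n = 20), so IVO fell further than IVM and the difference shrank to -0.404 percentage points, less than the SD of either group. When IVM libraries 1 to 18 and all IVO libraries alone chose the windows and were compared, it was -0.613. With windows chosen from the 8 IVM oocytes of libraries 39 to 46 and all IVO oocytes it was 1.29, of the opposite sign, although the same libraries were at -1.05 on the windows chosen from all oocytes. The size of the difference in hypermethylated windows, and in the last case its sign, thus depended on which oocytes chose them.

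Across oocytes, the means over members showed little relation to the number of windows measured in IVM (Pearson's r -0.012, Spearman's rho -0.040, n = 26) and in IVO (r -0.0039, rho 0.15, n = 20). Leaving out the 2 oocytes whose number of windows was farthest from the median gave an r of 0.066 in IVM and 0.18 in IVO. For windows of 20 to 80% in the same oocytes, the corresponding values were -0.92 (r) and -0.66 (rho) for IVM, and -0.89 (r) and -0.88 (rho) for IVO. The classes are not compared in this, because the members were chosen for a high mean on the same values and have little room to rise, unlike windows of 20 to 80%. These relations are descriptions over oocytes of 4 heifers and carry no p-value.

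A value below 50% in a hypermethylated window is called lost. The share of lost values was 4.32% in the lowest IVM oocyte, 5.70% at the median and 7.85% in the highest, and 3.06%, 5.25% and 7.57% in IVO. On average, IVM oocytes had lost 5.78% ± 0.944 (SD, n = 26) and IVO oocytes 5.22% ± 1.16 (SD, n = 20), a difference smaller than the SD of each group. With the windows chosen without the oocyte in question, the shares were 7.19% in IVM, from 5.77% to 9.48%, and 7.26% in IVO, from 4.78% to 10.3%, so the order of the groups turned and the difference became far smaller than the spread. IVM libraries 40 (7.85%) and 39 (6.81%), whose means were lowest, had 23707 and 27213 windows measured, under the IVM median and far above the shallowest oocytes. The highest share in IVO was that of library 36 (7.57%), with 11808 windows, and the lowest that of library 28 (3.06%), with 32331 windows, the most of any IVO oocyte. Without libraries 39 and 40 and with the windows chosen anew, a setting chosen after seeing the data, the mean in IVM was 5.67%. Losses were thus found in every oocyte.

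The share of lost values went with depth. Oocytes with more windows had a lower share in IVM (r -0.70, rho -0.64, n = 26) and in IVO (r -0.71, rho -0.66, n = 20). Leaving out the 2 oocytes of most extreme depth gave an r of -0.66 in IVM and -0.69 in IVO. The share at exactly 0 followed depth more closely, with r of -0.95 in IVM and -0.93 in IVO, as did the share at 100%, with r of -0.94 and -0.95. In the 10 oocytes with fewer than 15000 windows, 5.27% of values were at 0 and 78.4% at 100%, against 2.19% and 61.8% in the other 36 oocytes. Shallow oocytes therefore had more values at both ends, with means over members of 89.2% against 89.0%, and how far the number of calls per window sets the count of losses was not tested. In the 36 oocytes with at least 15000 windows, on the windows chosen from all oocytes, the IVM oocytes had 5.51% ± 0.809 (SD, n = 21) of their values lost and the IVO oocytes 4.81% ± 0.878 (SD, n = 15). In the same oocytes, with windows chosen without the oocyte in question, the shares were 6.92% and 6.76%. The gap was smaller than the SD of either group with both choices of windows.

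Losses were spread over many windows. No lost value was seen in 2104 of the 6417 members (32.8%), 1 in 1761, 2 in 1226, 3 or 4 in 1043 and 5 or more in 283 (4.41%). The last 283 windows held 1652 of the 9355 lost values (17.7%), had a median level of 82.1% and were measured in 39 oocytes at the median, against 94.99% and 24 oocytes in the windows without a loss. Both follow from the count, since lost values lower the level of their window and more measured oocytes give more chances of a loss. Lost values were found in IVM alone in 1704 members, in IVO alone in 987 and in both in 1622. IVM has 26 oocytes with 103762 values in members, and IVO 20 oocytes with 72176. The group with more values has more chances of a loss, and the same counts over all windows are not given here. Nothing is therefore read from these 3 counts about the groups. The share of lost values per chromosome lay between 4.61% on chromosome 4 and 6.54% on chromosome 3, with a median of 5.35%.

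The largest number of lost values in a member was 10, in 3 members, and 10 further members had 9, of which the 2 with the lowest level are named. On chromosome 14 (56909682 to 56926501), 33 of 45 oocytes were at 100% and 10 were below 50%. In IVM, values ranged from 6.58% to 100% with a median of 100%, and 6 of 26 oocytes (23.1%) were lost. In IVO, values ranged from 10.0% to 100% with a median of 100%, and 4 of 19 (21.1%) were lost. The losses were thus found in both groups. On chromosome 5 (108931631 to 108940544), 33 of 46 oocytes were at 100%, and 6 of 26 were below 50% in IVM (23.1%) and 4 of 20 in IVO (20.0%). On chromosome 3 (116422437 to 116434096), 32 of 42 oocytes were at 100%, and 6 of 25 were below 50% in IVM (24.0%) and 4 of 17 in IVO (23.5%). In all 3 windows most oocytes were fully methylated and a minority was low, in both groups. Losses reached 9 oocytes on chromosome 17 (71281057 to 71346374), with 4 of 26 in IVM (15.4%) and 5 of 20 in IVO (25.0%). They also reached 9 on chromosome 15 (44290781 to 44309669), with 5 of 23 in IVM (21.7%) and 4 of 16 in IVO (25.0%). Of these 5 windows, only that on chromosome 15 had an oocyte at 0, and it was 1 oocyte. The windows on chromosomes 14, 5 and 3 were not part of a run, with neighbouring levels of 40.6% and 43.1%, 14.7% and 27.0%, and 39.2% and 43.6%. The window on chromosome 17 lay between windows of 76.4% and 82.9%, and that on chromosome 15 between windows of 17.6% and 92.6%, so the windows with most losses were found both alone and beside a window above 80%. These windows were picked for their losses, and the shares are a description.

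Losses seldom extended to the next window. For neighbouring members of a run that were both measured in an oocyte, the first was lost in 1968 of 49741 pairs, and the second was then also lost in 127 (6.45%, exact Clopper-Pearson 95% interval 5.41 to 7.63%, counting error only). Over all pairs, the second was lost in 4.01%, and in the other oocytes at the same places in 4.91%. In IVM the share was 6.82% of 1232 (5.47 to 8.37%), against 4.25% over all pairs and 5.08% in the other oocytes at the same places. In IVO it was 5.84% of 736 (4.26 to 7.79%), against 3.65% and 4.59%. With a lost value taken as below 20%, it was 3.58% of 1060, or 38 cases (2.55 to 4.89%), against 2.17% and 2.80%. The other oocytes were not matched for depth. In oocytes with at least 15000 windows, with the windows chosen from these oocytes, it was 5.86% of 1706 (4.79 to 7.08%), against 3.67% and 4.32%. The share in the other oocytes lay below the interval for all oocytes, for IVM and for the oocytes with at least 15000 windows. It lay inside the interval for IVO and for values below 20%. Pairs from the same oocyte are not independent, so nothing is concluded from where this share lay. Whether a loss went with another in the adjoining window beyond the differences in depth was not tested. Over 9 in 10 losses in these pairs were not followed by another, but the choice of members leaves few losses in any second window.

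Series of lost neighbours in 1 oocyte were counted 124 times, of which 122 were pairs. The longest was found in IVO library 24 on chromosome 28 (43436327 to 43609030, 173 kb), where 4 neighbouring windows had 6.25%, 10.0%, 47.4% and 0. In the other oocytes, the same 4 windows had a mean of 92.8%, with 2 of 93 values below 50%. The other series of more than 2 windows was found in IVM library 13 on chromosome 13 (32443658 to 32805755, 362 kb), where 3 windows had 16.7%, 0 and 0, whereas the other oocytes had a mean of 89.5%, with 2 of 88 values below 50%. At least 2 of the windows were measured in 30 other oocytes on chromosome 28 and in 31 on chromosome 13, and none of these had 2 of them lost. Neighbours that were both lost made up 84 of 29997 measured pairs in IVM (0.280%) and 43 of 19744 in IVO (0.218%). The places were named after their values were seen.

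How far the groups can differ in a member is limited by the rule, since a mean of at least 80% leaves little room below 100%, and the 1124 members at 95% or above cannot differ by more than 10 percentage points. Counts of differences are therefore printed beside the share over all windows and nothing is read from that comparison. IVM was lower than IVO by at least 10 points in 875 of 6417 members (13.6%), against 25.7% of all 27612 windows, and higher in 633 (9.86%), against 14.8%. In windows of 20 to 80%, the shares were 30.3% and 16.1%, and in windows below 20% they were 15.9% and 18.7%. The class below 20% is limited in the same way. Within members, IVM was lower somewhat more often than higher, as it was over all 27612 windows, on windows that every oocyte had helped to choose. With at least 10 oocytes in each group, which for these shares was chosen after seeing the data, IVM was lower in 480 of 3958 members (12.1%), against 24.1% of 17103 windows, and higher in 315 (7.96%), against 11.5%. The difference over members was -1.03 percentage points at the median, with 90% of members between -15.5 and 13.8 points. IVM was lower in 3569 members (55.6%), higher in 2826 and equal in 22. Over all 27612 windows, the median difference was -2.21 points, and IVM was lower in 16018 (58.0%), higher in 11571 and equal in 23.

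The most negative differences among the 3958 members were found on chromosomes 18, 17, 11 and 1, each with an IVO median of 100% and IVM oocytes spread widely. On chromosome 18 (54269261 to 54288994), IVM ranged from 25.0% to 100% with a median of 65.8%, and IVO from 80.0% to 100% with a median of 100%. The means were 67.8% ± 29.2 (SD, n = 15) and 98.0% ± 6.00 (SD, n = 11), a difference of -30.1 percentage points, and the ranges overlapped. On chromosome 17 (61227806 to 61277966), the means were 69.0% ± 41.0 (SD, n = 15) and 98.6% ± 3.04 (SD, n = 10), with IVM values from 0 to 100%. The medians in this window were 90% and 100%, so the difference rested largely on the 4 IVM oocytes that were below 50%. On chromosome 11 (4946698 to 4997101), the means were 69.7% ± 39.6 (SD, n = 16) and 98.3% ± 4.39 (SD, n = 11), again with 4 IVM oocytes below 50%. On chromosome 1 (88491302 to 88589920), the means were 67.3% ± 39.5 (SD, n = 25) and 95.3% ± 11.2 (SD, n = 17), and IVM ranged from 3.03% to 100% with a median of 100%. Here 8 of 25 values were lost in IVM and 0 of 17 in IVO. Both runs of IVM libraries lay below IVO in all 4 windows, but by amounts that depended on the run. The differences of libraries 1 to 18 and of libraries 39 to 46 were -33.0 and -22.4 points on chromosome 18, -23.7 and -41.4 on chromosome 17, -19.5 and -55.8 on chromosome 11, and -26.7 and -30.9 on chromosome 1.

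The most positive differences mirrored these. On chromosome 1 (154010731 to 154037729), IVM ranged from 72.7% to 100% with a median of 100%, and IVO from 0 to 100% with a median of 71.4%. The means were 94.9% ± 9.51 (SD, n = 13) and 65.9% ± 38.5 (SD, n = 11), a difference of 28.9 percentage points. On chromosome 15 (84789025 to 84809290), the means were 96.1% ± 7.90 (SD, n = 11) and 67.3% ± 40.5 (SD, n = 10), with 2 IVO oocytes at 0. The medians in this window were 100% in IVM and 86.7% in IVO, so these 2 oocytes carried part of the difference. On chromosome 7 (1439949 to 1503928), the means were 94.8% ± 10.5 (SD, n = 16) and 67.5% ± 39.7 (SD, n = 15), with 4 of 15 IVO oocytes below 50%. On chromosome 11 (105746275 to 105763052), the means were 96.6% ± 7.45 (SD, n = 15) and 69.8% ± 40.4 (SD, n = 10), with 2 IVO oocytes at 0. These 8 windows were taken from the ends of 3958 differences and have no test. In all of them some oocytes of the lower group were at 100%, so the ranges overlapped.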

How the data were processed

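Bisulfite libraries of 26 IVM and 20 IVO oocytes were analysed. Reads were trimmed (Trim Galore 0.4.4), aligned (Bismark 0.18.2, UMD3.1.1), deduplicated and quantified in SeqMonk by the authors, whose deposited values are the percent of CpG calls that were methylated in each window and oocyte. The minimum of calls is not given in the sources used here, and as the number of calls is unknown, a percentage carries no interval. Coordinates are those of the deposited table, in UMD3.1 by its labels. Levels are the mean of the IVM and IVO means. Windows named in the text followed a rule: the 5 longest runs (ties by bp), the 5 members with most losses (ties by the lower level), the 5 with the smallest SD, the 4 largest differences in each direction, the 3 nearest to the threshold on each side, the longest and shortest member, and the chromosomes with the extreme shares. Members and lists were chosen with earlier results of these data known. Chromosome X, genome sequence and the expression table were not used here. Scripts were tested on simulated data. Python 3.11.15, numpy 2.4.6, pandas 2.3.3 and scipy 1.17.1 were used. Alternatives covered threshold, number of oocytes, length, averaging, depth, library runs and the choice of windows.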

Additional observations from a re-analysis of the deposited data

How the results depend on the processing

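The number of hypermethylated windows was 3027 at a threshold of 90%, 3958 with at least 10 oocytes in each group and 9870 with medians over oocytes, and stayed within 1.5 times of 6417 under the other 6 alternatives. The difference of IVM from IVO was negative under 10 of 11 alternatives and 1.29 with windows chosen from IVM libraries 39 to 46 and all IVO oocytes, where fewer oocytes chose the windows; leaving out each oocyte in turn and choosing the windows anew, an alternative chosen after seeing the data, gave -1.40 to -0.958, and the other alternatives added in that way, which left out library 40 or libraries 39 and 40, were negative too. The share of lost values was 3.31% in IVM and 3.24% in IVO for values below 20%, 2.84% and 2.89% for values of exactly 0, and 7.19% and 7.26% with windows chosen without the oocyte. The share of members in runs of at least 3 was 41.9%, 31.1% and 18.8% at thresholds of 75, 85 and 90%, 19.5% with at least 10 oocytes, 48.3% with unusable windows passed over and 35.5% with IVO alone. The share of losses followed by another was 3.58% for values below 20%. With at least 10 oocytes, chosen after seeing the data, IVM was lower by 10 points in 12.1% of members and higher in 7.96%. Changes in counts follow from fewer or more windows entering; the cause of the others was not tested. No paired analysis was made, because the labels used here do not tie an oocyte to its heifer. The unknown number of calls per window limits what a single lost value shows.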
